A study of Mus musculus with 6 samples.

Results

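Lef1, Tcf7, Satb1, Bach2, Foxp1, Bcl11b, Ets1 and Myb are transcription factor genes of the naive T cell programme. They were taken by name, as 8 of the 55416 genes counted, and all 8 passed the filter on low counts that left 14926 genes for testing. The members and the related gene lists were chosen with earlier results of these data known. Shares over all genes beside their counts are therefore a description and not a test. The libraries were made from splenic CD3+ T cells of grafted C57BL/6 recipients. There were 3 libraries from recipients of an allograft, a graft from a genetically different donor, and 3 from recipients of an isograft, a graft from a genetically identical donor. The labels give both groups the genotype WT and describe culture in medium with serum and antibiotics. Which organ was grafted, from which donor strain, at what age of the mice, and how long the graft and the culture lasted is not stated in the sources used here. Nothing in the labels ties each library to its own mouse, and p-values therefore reflect how far these libraries vary, part of which may be technical.

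Naive T cells are mature T cells that have not yet met their antigen. Their resting state is kept by a set of transcription factors that are also used during T cell development in the thymus. TCF-1 (the product of Tcf7) and LEF1 bind DNA through a related HMG box, can recruit the coactivator beta-catenin or Groucho/TLE corepressors, and are known to decline as T cells become effector cells. BCL11B, a zinc finger protein, keeps cells committed to the T lineage. ETS1 and FOXP1 are needed for the maintenance of naive T cells, BACH2 restrains effector genes by competing with AP-1 factors, MYB acts in progenitors and in long-lived lymphocytes, and SATB1 organises chromatin in thymocytes and T cells.

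Library totals ran from 30078504 to 34123777 counts in allograft libraries and from 30066137 to 37821738 in isograft libraries. Levels are given as CPM, the counts relative to library totals after TMM scaling, which corrects the totals for differences in RNA composition. B cell transcripts were present throughout. The 20 B cell markers summed to 2418 to 2580 CPM in allograft libraries and 2452 to 2612 CPM in isograft libraries, and the 21 T cell markers to 2401 to 2633 CPM and 2872 to 2964 CPM in the same order. Of the B cell markers 4 rose and 9 fell, and of the T cell markers 6 rose and 11 fell. Fcer2a, the B cell marker with the largest rise, had 378.0 ± 22.6 CPM in allograft and 52.8 ± 0.951 CPM in isograft libraries. It is part of the B cell sum, so the near-equal sums do not show that B cell markers held level. Over all genes tested, 28.7% rose and 29.1% fell. Ets1, Foxp1, Bach2 and Myb are known to be expressed by B cells too, while Tcf7 and Bcl11b are largely restricted to T cells and innate lymphocytes. The part of B cells in the results was not tested. NK cell markers (9 genes) summed to 110.9 to 114.7 CPM in allograft libraries and 95.1 to 97.27 CPM in isograft libraries, with 2 that rose and 2 that fell. Myeloid markers (12 genes, of which 11 were tested) summed to 311.3 to 323.8 and 308.8 to 315.7 CPM, with 2 that rose and 3 that fell. The 8 thymocyte and progenitor markers summed to 34.34 to 39.07 CPM in allograft libraries and 55.63 to 57.84 CPM in isograft libraries. Rag2 and Ptcra were at 0 in all 6 libraries, and 3 of 4 tested members fell. The most abundant were Cd1d1 (10.1 CPM in allograft and 24.1 CPM in isograft libraries), Kit (14.6 and 19.3) and Flt3 (11.7 and 11.4). Rag1 and Cd34 averaged at most 0.182 CPM in either group. Whether thymocytes or progenitors carried this sum was not tested. The 7 erythroid markers summed to at most 1.621 CPM in any library, with 0 of 2 tested members called. In bulk samples fewer cells of a type and less RNA per cell cannot be told apart.

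Sequences before the RefSeq starts of the members are shown to place the TCF/LEF letters among them, since Lef1 and Tcf7 fell the most. RefSeq sequences (build GRCm38.p6) were matched by symbol for 7 of the 8 members, and Ets1 was not matched. The 250 bases before the most upstream RefSeq start were searched on both strands. The TCF/LEF letters searched were CTTTGAA with its variants CTTTGAT and also CTTTGTA and then CTTTGTT. They were found in 2 of the 7 members, Foxp1 and Bcl11b, against 14.9% of 27025 mouse genes. The window of Tcf7, without a match, holds an ATG with no stop codon in its frame up to the window's end. GENCODE M21 draws 0 exonic and 0 coding bases there. The Tcf7 window may thus be coding and not upstream sequence, which was not tested. The 2 matches are given with their surroundings, 30 bases each, with the matched letters in capitals. In Foxp1 (chr6:99521170-99521199, minus strand) the letters CTTTGTT lay on the strand opposite the gene, from 195 bases before the RefSeq start. That start lies 1728 bases inside the gene as GENCODE M21 draws it, and 169 of the 250 bases are exonic there, with 0 exonic bases in the excerpt shown. In Bcl11b (chr12:108003485-108003514, minus strand) CTTTGAA lay on the gene's own strand, from 89 bases before the RefSeq start. That start lies 188 bases inside the GENCODE gene, and all 30 bases of the excerpt are exonic there, so this match lies in transcribed sequence and not upstream of the gene.
Foxp1: ccgcgcccagaAACAAAGtctcatgccccc
Bcl11b: gaggccaagcaCTTTGAAgaagtgtgagag

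The windows of Lef1, the member with the largest fall, and Satb1, the member whose level did not pass the test, held none of the TCF/LEF letters. The 250 bases of Lef1 (chr3:131110047-131110296, plus strand) had 66.4% G and C and held 1 match to a MYB motif (TAACNG or CAACNG), in capitals. Those of Satb1 (chr17:51833291-51833540, minus strand) had 58.0% G and C and no match to it.
Lef1: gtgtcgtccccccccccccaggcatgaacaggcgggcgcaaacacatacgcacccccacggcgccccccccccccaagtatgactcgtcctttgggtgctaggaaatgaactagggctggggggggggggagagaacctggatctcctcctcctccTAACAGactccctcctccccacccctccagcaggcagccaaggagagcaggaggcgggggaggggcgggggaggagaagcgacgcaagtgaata
Satb1: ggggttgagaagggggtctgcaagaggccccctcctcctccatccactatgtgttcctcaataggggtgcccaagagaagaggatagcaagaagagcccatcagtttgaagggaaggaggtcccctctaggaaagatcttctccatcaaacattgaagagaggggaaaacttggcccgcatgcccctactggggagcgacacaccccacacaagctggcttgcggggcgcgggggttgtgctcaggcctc

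The MYB letters were found in 3 of 7 members (Lef1, Foxp1 and Bcl11b), against 42.9% of all genes. In Bcl11b they lay from 15 bases before the RefSeq start, in sequence that is exonic in GENCODE M21. In Foxp1 they lay from 87 bases before the RefSeq start, inside the gene as GENCODE M21 draws it. The ETS letters CCGGAAG were found in 1 of 7, Bach2, against 7.07%. The letters TGACTCA, bound by BACH and AP-1 proteins, and the FOX letters TGTTTAC were found in 0 of 7, against 4.43% and 3.06%. None of these matches overlapped another. RefSeq gives several starts for some members, and which start these cells used was not tested. The RefSeq start of Bach2 also lies inside the GENCODE gene, by 178631 bases.

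Across the members, 7 of 8 fell in allograft libraries and 0 rose, by edgeR's quasi-likelihood test with Benjamini-Hochberg adjustment over all 14926 genes at a threshold of 0.05. Of all genes tested, 29.1% fell and 28.7% rose. At an unadjusted p under 0.05, and with DESeq2, 0 members rose as well. With library totals in place of TMM, 2973 genes rose and 6093 fell, against 4283 and 4349 with TMM, and all 8 members fell. For the same 7 members the 3 allograft values lay below the 3 isograft values, as they did for 32.1% of all genes tested. Lef1, Tcf7, Ets1 and Bcl11b fell at least 2-fold, which 10.1% of all genes did. The median log2 fold change of the 8 members was -0.87, beside -0.01 over all genes tested. Fold changes are allograft minus isograft on the log2 scale, each with its standard error (SE).

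**Figure D1:**
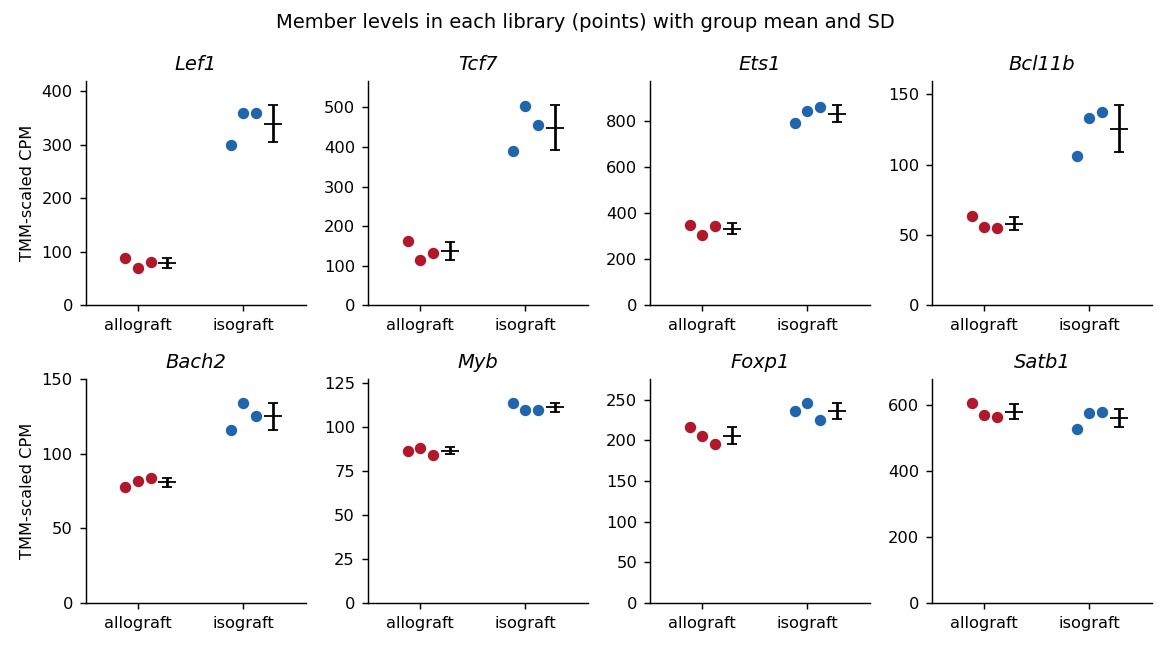
TMM-scaled CPM of each member on a linear axis from 0, with 1 point for each of the 3 allograft and 3 isograft libraries and the group mean with its SD beside them. The allograft points lie below all isograft points in every panel but that of Satb1, where they overlap.

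Lef1 (ENSMUSG00000027985, chromosome 3, 130904120 to 131018005, GRCm39) had 88.2, 69.9 and 80.6 CPM in allograft libraries, against 299.6, 359.6 and 359.6 CPM in isograft libraries. The groups were far apart, and isograft replicate 1 was the lowest of its group. The log2 fold change was -2.09 ± 0.09 (adjusted p = 2.6e-12), which left Lef1 at 23.4% of its isograft level. Among the 4349 genes that fell it ranked 177th by size. An antisense gene, Gm43352, shares 1208 exon bases with Lef1 (13.7% of its exon length) and averaged 0.41 CPM in allograft and 2.03 CPM in isograft libraries. Counting did not use strand, so reads of the antisense gene and of Lef1 cannot be told apart over the shared bases.

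Tcf7 (ENSMUSG00000000782, chromosome 11, 52143198 to 52174158) had 161.5, 115.5 and 132.2 CPM in allograft libraries, against 389.4, 502.5 and 455.6 CPM in isograft libraries. It was the member with the widest spread in the allograft group, with a coefficient of variation of 17.1% there and 12.7% in isograft libraries. The lowest isograft value was still above the highest allograft value, and the log2 fold change was -1.72 ± 0.13 (adjusted p = 2.5e-07). Within each library the Lef1 count was 0.546, 0.605 and 0.610 of the Tcf7 count in allograft libraries and 0.769, 0.716 and 0.789 in isograft libraries. The 3 allograft ratios lay below the 3 isograft ratios, a log2 difference of -0.37, and the exact two-sided permutation test gave p = 0.1, the smallest that 3 against 3 libraries allow.

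Ets1 (ENSMUSG00000032035, chromosome 9, 32547517 to 32669116) had 346.4, 305.5 and 344.4 CPM in allograft libraries, against 789.9, 845.1 and 860.7 CPM in isograft libraries. The groups did not overlap, and the log2 fold change was -1.32 ± 0.07 (adjusted p = 9.1e-12). Fli1, its nearest tested neighbour and a relative with the same ETS DNA-binding domain, lies 93.4 kb away. Fli1 fell as well, by 0.99 on the log2 scale (adjusted p = 1.5e-09), to 62.4 ± 5.01 CPM in allograft libraries, against 123.9 ± 5.83 CPM in isograft libraries (SD, n = 3 each).

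Bcl11b (ENSMUSG00000048251, chromosome 12, 107876662 to 107969861) had 63.4, 55.8 and 54.8 CPM in allograft libraries, against 106.4, 133.1 and 137.4 CPM in isograft libraries. Isograft replicate 1 was again the lowest of its group, and the groups did not overlap. The log2 fold change was -1.12 ± 0.09 (adjusted p = 1e-08). No other gene in the annotation overlaps Bcl11b, so its count is free of shared exon bases.

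Bach2 (ENSMUSG00000040270, chromosome 4, 32238804 to 32586108) had 77.5, 81.8 and 83.6 CPM in allograft libraries, against 115.9, 134.2 and 125.5 CPM in isograft libraries. Its fall was smaller, -0.63 ± 0.08 (adjusted p = 5.4e-07), and the groups did not overlap. Bach2it1, an annotated gene inside Bach2 on the same strand that shares no exon base with it, differed in the other direction. It averaged 2.19 CPM in allograft and 1.26 CPM in isograft libraries, a log2 fold change of 0.80 (adjusted p = 0.021). Bach2it1 was singled out after its values were seen. The antisense gene Bach2os shares 537 exon bases with Bach2 (5.4% of its exon length) and averaged 0.404 CPM in allograft and 0.35 CPM in isograft libraries.

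Myb (ENSMUSG00000019982, chromosome 10, 21000834 to 21036883) had 86.6, 88.3 and 84.3 CPM in allograft libraries, against 113.8, 109.7 and 109.9 CPM in isograft libraries. It was the least variable member, with a coefficient of variation of 2.34% and 2.08% in the 2 groups. The log2 fold change was -0.36 ± 0.07 (adjusted p = 0.00015). An antisense gene, Gm26577, shares 559 exon bases with Myb (6.26% of its exon length) and averaged 0.0237 CPM in allograft and 0.114 CPM in isograft libraries. Its nearest tested neighbours rose: Ahi1, 44.5 kb away, by 0.61 ± 0.08 (adjusted p = 2.4e-06) and Hbs1l, 135 kb away, by 0.26 ± 0.08 (adjusted p = 0.0072).

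Foxp1 (ENSMUSG00000030067, chromosome 6, 98902299 to 99499682) had 216.0, 205.3 and 195.3 CPM in allograft libraries, against 236.3, 246.2 and 225.6 CPM in isograft libraries. The groups did not overlap but lay close together, and the log2 fold change was -0.20 ± 0.07 (adjusted p = 0.019). The call was lost without allograft replicate 2 (adjusted p = 0.063), allograft replicate 3 (0.055) or isograft replicate 2 (0.094). The count sums all isoforms of Foxp1.

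Satb1 (ENSMUSG00000023927, chromosome 17, 52043215 to 52140318) had 605.9, 569.9 and 561.3 CPM in allograft libraries, against 526.9, 575.6 and 577.0 CPM in isograft libraries. The groups overlapped, and the log2 fold change of 0.05 ± 0.07 did not pass (adjusted p = 0.57). With library totals in place of TMM the sign turned and the call was gained (-0.17, adjusted p = 0.031). That scaling moved the median of all genes to -0.24, so Satb1 stood above the median of all genes under both scalings.

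Levels can be set against each other only per exon length, as CPM per kb of annotated exon. That length takes in all annotated exons, from 3019 bases for Tcf7 to 19027 for Satb1. Which exons these cells used was not tested, and a gene with many unused exons would stand too low. In allograft libraries the order was Tcf7 (45.2 ± 7.71), Ets1 (39.2 ± 2.72), Satb1 (30.4 ± 1.24), Foxp1 (14.9 ± 0.755), Myb (9.67 ± 0.226), Lef1 (9.06 ± 1.05), Bach2 (8.15 ± 0.317) and Bcl11b (7.15 ± 0.578). In isograft libraries it was Tcf7 (148.8 ± 18.8), Ets1 (98.1 ± 4.39), Lef1 (38.6 ± 3.94), Satb1 (29.4 ± 1.5), Foxp1 (17.2 ± 0.749), Bcl11b (15.5 ± 2.07), Bach2 (12.6 ± 0.924) and Myb (12.4 ± 0.258), each as mean ± SD of 3 libraries. Lef1 stood below Satb1, Foxp1 and Myb in allograft libraries and above them in isograft libraries. The ranges of Tcf7 and Ets1 overlapped in the allograft group and not in the isograft group. The ranges of Myb, Lef1 and Bach2 formed overlapping neighbours in the allograft group, as did Bach2 with Bcl11b, while in the isograft group Foxp1 overlapped Bcl11b, Bcl11b overlapped Bach2, and Bach2 overlapped Myb.

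The 8 members summed to 163.8 ± 12.7 CPM per kb in allograft libraries and 372.7 ± 30.5 CPM per kb in isograft libraries. Tcf7 made up 27.5 ± 2.54% of that sum in allograft libraries and 39.8 ± 1.92% in isograft libraries. Lef1 made up 5.52 ± 0.254% and 10.4 ± 0.328% in the same groups. The share of Satb1 was 18.6 ± 0.930% in allograft libraries, against 7.91 ± 0.283% in isograft libraries. Its own level was 30.4 and 29.4 CPM per kb in these groups, so its larger share comes with the lower sum. Bcl11b held 4.37 ± 0.179% and 4.15 ± 0.282%, a difference within the spread between libraries.

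**Figure D2:**
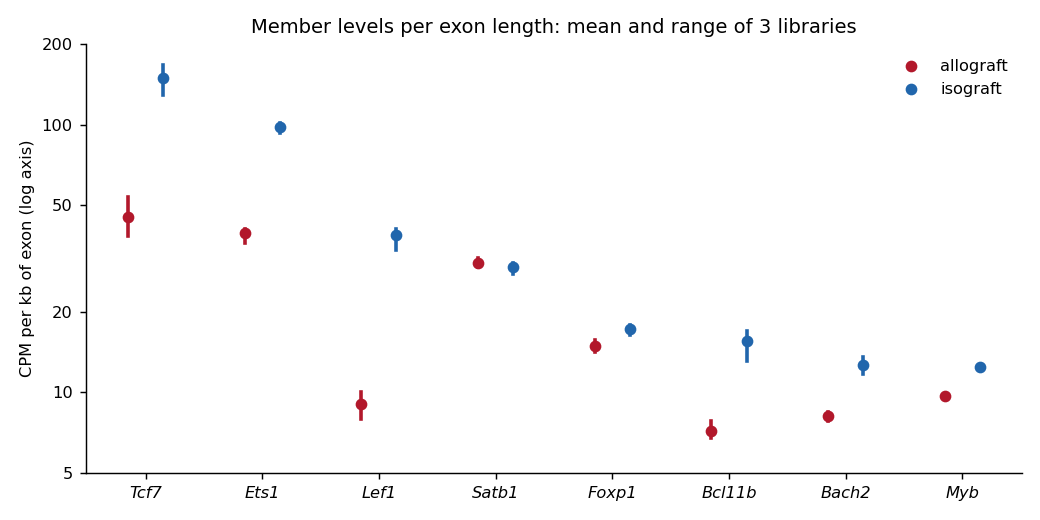
CPM per kb of exon for the 8 members on a log axis, ordered by the isograft mean, with the mean (point) and the range of 3 libraries (line) for allograft and isograft. Lef1 stands at 9.06 in allograft and 38.6 in isograft libraries, while the Satb1 points lie at 30.4 and 29.4.

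Ratios within a library do not depend on the scaling, and set each member against the T cell transcripts of the same library. As a percentage of the summed counts of the 21 T cell markers, Lef1 stood at 3.16 ± 0.227% in allograft and 11.7 ± 1.15% in isograft libraries, a log2 difference of -1.88. Tcf7 stood at 5.41 ± 0.668% and 15.4 ± 1.78% (-1.51), Ets1 at 13.2 ± 0.532% and 28.6 ± 1.32% (-1.11), and Bcl11b at 2.31 ± 0.108% and 4.32 ± 0.573% (-0.90), in the same order. The allograft values of these 4 members all lay below the isograft values. Bach2 (-0.41) and Myb (-0.15) were lower without overlap as well. Foxp1 overlapped between the groups, at 8.19 ± 0.369% in allograft and 8.11 ± 0.232% in isograft libraries (0.01, exact permutation p = 0.9). Satb1 was higher without overlap, at 23.1 ± 0.641% in allograft and 19.2 ± 0.943% in isograft libraries (0.26). The exact permutation p was 0.1, the smallest possible, for each of the 7 members without overlap, and 0.114 after adjustment over the 8 members, so none passed.

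The choice of T cell transcripts mattered for the smaller differences. The 4 CD3 chain genes Cd3d, Cd3e, Cd3g and Cd247 each fell in allograft libraries, Cd247 by 1.35 on the log2 scale (adjusted p = 3.9e-12) and Cd3g by 0.58 (adjusted p = 5.7e-07). Of the 21 T cell markers 11 fell and 6 rose. Besides the CD3 chains, Cd4 (-1.57), Sh2d1a (-1.45), Skap1 (-1.26), Trbc2 (-0.94), Trbc1 (-0.68), Cd8b1 (-0.55) and Cd28 (-0.31) fell. Cd5 (1.38, adjusted p = 3.7e-11), Zap70 (1.18, adjusted p = 4.9e-11) and Trac (0.72, adjusted p = 2e-07) were higher in allograft libraries. So were Thy1 (0.63, adjusted p = 0.015), Cd6 (0.60, adjusted p = 1.6e-06) and Cd8a (0.26, adjusted p = 0.007). The CD3 chains are thus a denominator of genes that all fell, which raises every ratio to them in allograft libraries. Against these 4 genes alone, Lef1 (-1.18), Tcf7 (-0.81) and Ets1 (-0.41) kept lower ratios without overlap. Bcl11b (-0.19) overlapped between groups. Bach2 (0.29), Myb (0.55), Foxp1 (0.71) and Satb1 (0.96) had higher ratios in allograft than in isograft libraries, without overlap. Against the summed B cell markers, Bach2 (-0.60), Myb (-0.33) and Foxp1 (-0.17) were lower without overlap and Satb1 (0.08) overlapped. That sum includes Fcer2a (2.84, adjusted p = 4e-16), whose rise lowers every ratio to it in allograft libraries.

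**Figure D3:**
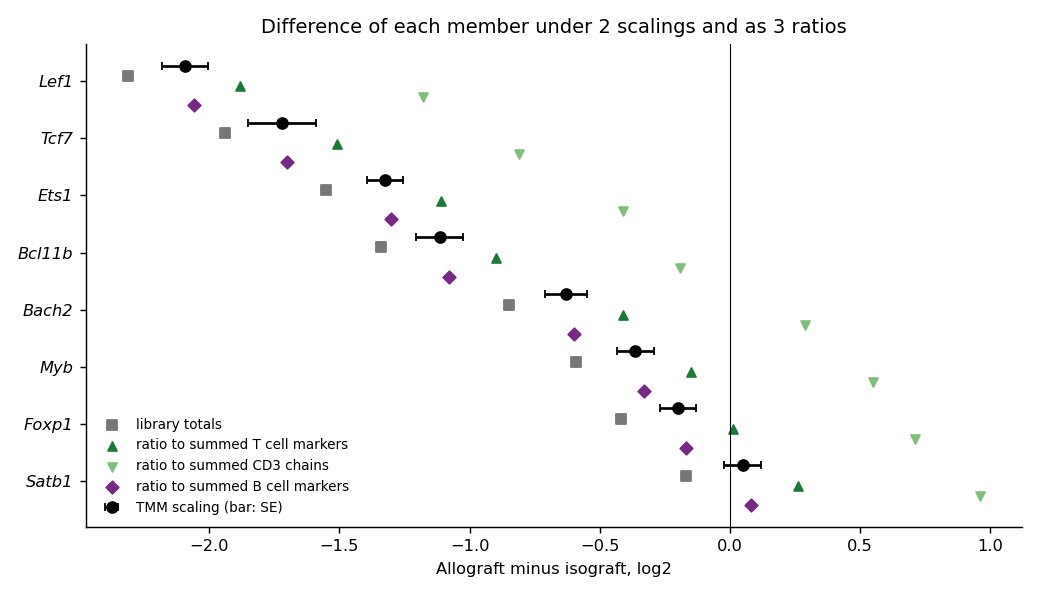
Allograft minus isograft difference of each member on a log2 axis, with TMM scaling (bar, SE), with library totals, and as a ratio to the summed T cell markers, CD3 chain genes or B cell markers. Lef1, Tcf7, Ets1 and Bcl11b lie below 0 under all 5, and Satb1 lies below 0 with library totals only.

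Among 12 family relatives of the members, 10 could be tested. Of these 4 rose and 1 fell, against 28.7% and 29.1% of all genes tested, and their median was 0.03 on the log2 scale. Mybl2, a relative of Myb that is expressed in dividing cells, rose by 1.41 ± 0.11 (adjusted p = 2.6e-09), to 27 ± 0.404 CPM in allograft libraries, against 10.2 ± 1.51 CPM in isograft libraries. Bach1, which shares its DNA-binding domain type with Bach2, rose by 0.76 ± 0.10 (adjusted p = 1.8e-06). Foxp3, the factor of regulatory T cells, rose by 0.76 ± 0.15 (adjusted p = 0.00028). Foxp4 rose by 0.34 ± 0.07 (adjusted p = 0.00053), a call lost with library totals (0.12, adjusted p = 0.17). The member that fell was Fli1. Bcl11a, a B cell relative of Bcl11b, had 44.9 ± 0.670 CPM in allograft and 45.0 ± 3.95 CPM in isograft libraries (adjusted p = 0.97). The TCF relatives Tcf7l1 and Tcf7l2 averaged 0.644 and 1.76 CPM in allograft libraries and 0.755 and 2.43 CPM in isograft libraries, and neither passed the test.

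Of 20 genes that partner or regulate TCF/LEF factors, 4 rose and 11 fell, with a median of -0.26. The shares over all genes tested were 28.7% and 29.1%. Ctnnb1, the gene of beta-catenin, had 111.3 ± 7.49 CPM in allograft and 112.1 ± 5.60 CPM in isograft libraries (adjusted p = 0.91). Axin2, a scaffold of beta-catenin degradation and a textbook target of TCF/LEF factors, fell by 1.76 on the log2 scale (adjusted p = 1.6e-08), to 5.79 ± 1.49 CPM in allograft libraries, against 19.7 ± 2.16 CPM in isograft libraries. Bcl9l, a coactivator that bridges beta-catenin and PYGO proteins, fell by 1.14 (adjusted p = 5e-10). Among the Groucho/TLE corepressors, Tle3 rose by 1.19 ± 0.09 (adjusted p = 1.3e-09), to 132.8 ± 13.5 CPM in allograft libraries, against 58.4 ± 5.93 CPM in isograft libraries. Tle5, a short member of that family, fell by 1.04 (adjusted p = 1e-09). Of the other TLE genes listed, Tle1 rose (0.48, adjusted p = 0.0034), while Tle4 (-0.3, adjusted p = 0.0069) and Tle2 (-2.0, adjusted p = 6.9e-06) fell. Tle2 was low, at 0.677 CPM in allograft and 2.72 CPM in isograft libraries. The kinase genes Gsk3b and Nlk fell (-0.77 and -0.75), with adjusted p = 4.9e-07 and 3.3e-06. With library totals 1 of the 20 rose, since Tle1, Bcl9 and Csnk1a1 lost their calls, and 13 fell.

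Other genes of naive T cells fell in 14 of 22 cases and rose in 3, with a median of -0.80. Over all genes tested, 29.1% fell and 28.7% rose. Il7r, the receptor chain for the survival cytokine interleukin 7, had 27.5 ± 7.51 CPM in allograft and 187.2 ± 13.4 CPM in isograft libraries, a log2 fold change of -2.77 ± 0.19 (adjusted p = 1e-05). The zinc finger factor genes Klf3 and Klf2 fell (log2 fold changes -1.54 and -1.67, adjusted p = 7.1e-13 and 3.7e-11). S1pr1, a receptor for exit from lymphoid organs, fell by 1.99 (adjusted p = 3.8e-10). Tob1, an inhibitor of proliferation, fell by 1.76 (adjusted p = 1.5e-10). Bcl2, a survival gene, rose by 1.06 ± 0.08 (adjusted p = 9e-10), and Cd27, a costimulatory receptor, by 0.95 ± 0.09 (adjusted p = 9.7e-08). The rise of Ikzf1 (0.16, adjusted p = 0.044) was lost without any 1 of the 6 libraries and turned to -0.06 with library totals. Slamf6, a surface receptor of lymphocytes, fell by 0.78 (adjusted p = 2.5e-07), and Id3, an inhibitor of E protein factors, had 4.59 ± 0.903 CPM in allograft and 4.90 ± 0.800 CPM in isograft libraries (adjusted p = 0.71).

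Transcription factors of activated and effector T cells rose in 17 of 20 cases and fell in 0, with a median of 1.25. The shares over all genes tested were 28.7% that rose and 29.1% that fell. The number of these factors that fell was also 0 at an unadjusted p under 0.05 and with DESeq2. It was 1 with library totals, where Rora fell by 0.45 (adjusted p = 0.0017). B cell transcripts were present in these libraries too, and which cells carried the transcripts of these factors was not tested. Irf4 had 703.8 ± 48.1 CPM in allograft and 117.5 ± 3.19 CPM in isograft libraries (2.58 ± 0.08, adjusted p = 1.6e-15). Myc, which drives growth after activation, rose by 3.20 ± 0.09 (adjusted p = 5.4e-15). Bhlhe40 rose by 1.72 ± 0.08 (adjusted p = 5.7e-13). The AP-1 genes Jun, Fos, Fosl2 and Batf, whose products share binding letters with BACH2, rose by 1.83, 1.92, 1.6 and 1.34, with adjusted p of at most 2.3e-10. Prdm1, a gene known to be repressed by BACH2, stayed low at 5.56 ± 0.274 CPM in allograft and 3.92 ± 0.675 CPM in isograft libraries. Its rise of 0.51 ± 0.18 (adjusted p = 0.019) was lost with library totals (0.28, adjusted p = 0.19) and without allograft replicate 2 (0.065), isograft replicate 2 (0.096) or isograft replicate 3 (0.054). Id2, Rora and Maf did not pass. Id2 (0.33, adjusted p = 0.051) was close to the threshold and passed it under 7 alternatives, among them DESeq2 (adjusted p = 0.046), limma-voom (0.048), RLE scaling (0.045) and the replicate block (0.037).

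**Figure D4:**
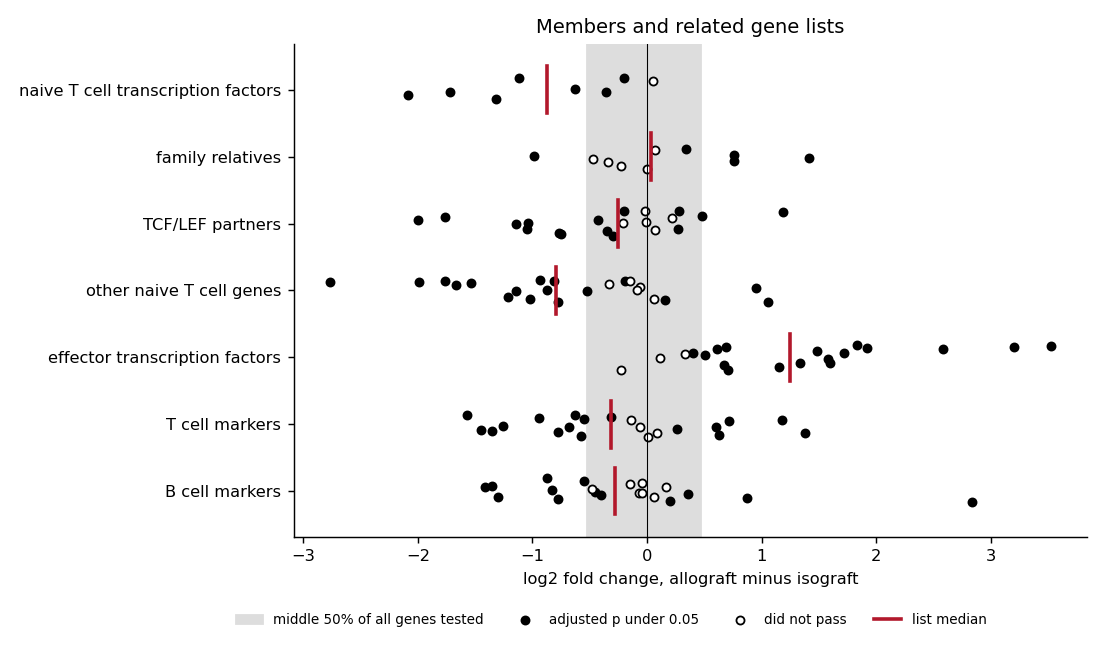
log2 fold changes (allograft minus isograft) of tested genes in the members' list and 6 related lists, with filled points for adjusted p under 0.05, a red line at each list's median and the middle 50% of all genes tested in grey. The medians are -0.87 for the members, -0.80 for other naive T cell genes and 1.25 for effector transcription factors.

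The genes whose levels over the 6 libraries lay closest to those of Lef1 were sought among 8826 genes with a mean of at least 5 CPM, by Euclidean distance of log2 CPM centred on each gene's mean. The 5 closest were Nsg2, Tecpr1, Ctdsp2, Slc12a7 and Slc43a2, at distances of 0.187 to 0.225 and Pearson r of 0.997 to 0.999 over 6 libraries. Nsg2 had 29.4, 24.8 and 30.3 CPM in allograft libraries, against 116.3, 123.3 and 124.7 CPM in isograft libraries. The 5 closest to Tcf7 were Rin3, Acsf2, Axin2, H6pd and Papss1, at distances of 0.119 to 0.235 and r of 0.995 to 0.999. Rin3 had 20.3, 15.5 and 17.3 CPM in allograft libraries, against 54.1, 67.4 and 63.3 CPM in isograft libraries. All these libraries fall into 2 groups, so r is high for any gene with a similar difference between groups. Lef1 and Tcf7 themselves were 0.480 apart, while the closest pair of members was Foxp1 and Myb at 0.240.

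The nearest tested gene on each side of the 8 members gave 16 neighbours, with a median log2 fold change of 0.06. Among the neighbours 4 rose, 3 fell and 9 did not pass, while 28.7% of all genes tested rose and 29.1% fell. Those that fell were Hadh, 9.06 kb from Lef1 (-1.46 ± 0.17, adjusted p = 2.7e-07), Eif4e3, 102 kb from Foxp1 (-1.52 ± 0.20, adjusted p = 1.9e-06), and Fli1 beside Ets1. The neighbours of Tcf7 did not follow it: Skp1a at 5.51 kb differed by 0.18 ± 0.07 (adjusted p = 0.051) and Vdac1 at 77.5 kb rose by 0.22 ± 0.08 (adjusted p = 0.029).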

How the data were processed

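Per the file headers, the authors counted read pairs over exons per Ensembl gene with featureCounts 1.6.0 and Ensembl release 104 (GRCm39), from alignments named for HISAT. The deposited values are whole-number counts with no normalization. GRCm38 and mm10 are the builds named in the submitters' processing notes. For 4 members (Lef1, Myb, Satb1 and Tcf7) the intervals of the builds do not overlap, and these held at least 2026 counts in every library. Gene coordinates are the files', and promoter coordinates are GRCm38.p6. The header's command sets no strand option, so antisense reads are not told apart.

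Of 55416 Ensembl IDs, 52083 were given a symbol. From the counts, edgeR 4.0.16 in R 4.3.3 (filterByExpr, TMM, robust quasi-likelihood test, Benjamini-Hochberg) compared allograft with isograft over 14926 genes, which hold 99.92% of counts. Values are TMM-scaled CPM with n = 3 libraries per group. The SE of a fold change was derived from it and its F statistic. Ratios were tested with exact permutation tests (SciPy 1.17.1). On simulated counts with as many rises as falls, 64% of 100 genes set to 1.5-fold and 91% of 100 set to 2-fold were called. Of genes left unchanged, 0.173% were called. Few genes were changed there, so the simulation cannot show whether TMM scaling holds in these libraries. The TMM factors were 0.9154 to 0.9359 in allograft and 1.066 to 1.101 in isograft libraries. Libraries of a group differed by more than sampling noise (chi-square per degree of freedom 9.58 to 20).

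The members and lists were chosen with earlier results of these data known. The text names every member, up to 6 genes of a list with the smallest p, genes needed by a count, and the 5 genes nearest to Lef1 and to Tcf7. Il7r, Slamf6, Id3, Ctnnb1, Bcl11a, Tcf7l1, Tcf7l2, Fos, Prdm1, Cd3g and the T cell markers that rose or fell were named after their values were seen. So were Fcer2a, Tle2, Tle4, Cd1d1, Kit, Flt3, Rag1, Cd34, Bach2os and Gm26577. Genes with predicted or clone names were left out of the search for nearest genes. The neighbour and overlap searches, the promoter motifs and the ratios to B cell markers were chosen after the files were seen. Alternatives were RLE scaling, library totals, DESeq2 1.42.0, limma-voom (limma 3.58.1), no robust estimation, testing of genes at any count or only of those reaching 5 CPM in 3 libraries, a replicate block, removal of each library in turn, and removal of immunoglobulin, hemoglobin and mitochondrial genes. For ratios, 0.5 was added to counts or only the CD3 chain genes were summed. Some list genes are not reported here by name. The labels give no batch.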

Additional observations from a re-analysis of the deposited data

How the results depend on the processing

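Each member's log2 fold change was recomputed under 15 alternatives. Those of Lef1 (-2.31 to -2.01), Tcf7 (-1.94 to -1.61), Ets1 (-1.55 to -1.27), Bcl11b (-1.34 to -1.05), Bach2 (-0.85 to -0.58) and Myb (-0.59 to -0.35) kept direction and call in all 15. Foxp1 ranged from -0.25 to -0.17 when single libraries were left out, and lost its call in 3 of those 6 fits (adjusted p = 0.055 to 0.094). Satb1 turned to -0.17 with library totals, where the median of all genes moved to -0.24 and 2973 genes rose and 6093 fell, against 4283 and 4349 with TMM. With library totals 3 family relatives fell, 1 TCF/LEF partner rose and 1 effector factor (Rora) fell. Leaving out libraries gave 1 to 2 relatives that fell (2 without allograft replicate 2 or 3), and the filter of at least 5 CPM gave 1 effector factor that fell. Against the CD3 chains alone the ratios of Bach2 and Myb turned to 0.29 and 0.55. Leaving out libraries moved the ratio of Foxp1 to the T cell markers between -0.02 and 0.05, with -0.01 without isograft replicate 3. Same-numbered libraries did not deviate together over genes (r of -0.063, 0.003 and -0.034). This cannot show whether the numbers mark a shared day, batch or animal, which the labels do not state. With the replicate block 7 members fell and 0 rose, and 4064 genes rose and 4152 fell. Depth did not limit the members, whose lowest count in a library was 1541.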
